A study of Mus musculus with 24 samples.

Results

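The genes described here are Id1, Id2, Id3, Id4, Smad6, Smad7 and Skil, which are rapidly transcribed under transforming growth factor beta (TGF-beta) and bone morphogenetic protein (BMP) signals. The 7 genes were found by their RefSeq transcript on a 1-colour expression microarray and are 7 of the 23787 genes with a symbol on it, read by 10 of its 56605 probes. The samples were TM3 cells, an established line of mouse Leydig cells, the steroid-producing cells of the testis. The cells had been detached, washed, suspended in binding buffer, filtered and put into electroporation cuvettes. They then received either a nanosecond pulsed electric field (nsPEF), a train of very short high-voltage pulses, or a sham exposure without the pulses. RNA was taken 0, 4 and 24 h later, which gave 6 groups of 4 arrays: sham cells at 0 h (S0), 4 h (S4) and 24 h (S24) and nsPEF cells at 0 h (E0), 4 h (E4) and 24 h (E24). No group was left undetached or unsuspended, all groups come from the same unmodified cell line, and the 4 samples of a group are biological replicates by the methods of the study. The cells stayed in the cuvette only during the exposure, and the paper describes the 24 h that followed as standard culture. The 0 h cells thus came straight from this handling and the later cells from culture. Elapsed time and the return to culture cannot be told apart here. The series asks how the pulses change expression and how it changes with time.

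TGF-beta and BMP ligands bind receptor kinases on the cell surface, which phosphorylate carrier Smad proteins. These enter the nucleus with Smad4 and switch on target genes. Among the first targets are inhibitors that feed back on the pathway: Smad6 and Smad7 block the receptors and the carrier Smads, and Skil (SnoN) represses transcription by the Smads. The Id proteins are helix-loop-helix proteins without a DNA-binding region, which bind E proteins and keep them from DNA. Id1, Id2 and Id3 are classic BMP targets, but serum and other signals also act on these genes, as on the rest of the set.

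Because every member was called between 0 and 4 h, the sequence just before the transcription start is shown for the 4 members whose promoter was used here. The sequences come from the RefSeq promoter table (build GRCm38.p6): Id2 at chr12:25096093-25096342 (minus strand), Id3 at chr4:136143572-136143821 (plus strand), Id4 at chr13:48260866-48261115 (plus strand) and Smad6 at chr9:64022060-64022309 (minus strand). Each line holds the 250 bases before the start, 5′ to 3′ on the strand of the gene. Capitals mark matches on either strand to 6 motifs: GGCGCC (a GC-rich Smad-binding element), CAGAC (the Smad box), TGACG (part of a cyclic AMP response element), CCAAT (a motif of many promoters), TATAAA (a core promoter motif) and CACGTG (an E-box).
Id2: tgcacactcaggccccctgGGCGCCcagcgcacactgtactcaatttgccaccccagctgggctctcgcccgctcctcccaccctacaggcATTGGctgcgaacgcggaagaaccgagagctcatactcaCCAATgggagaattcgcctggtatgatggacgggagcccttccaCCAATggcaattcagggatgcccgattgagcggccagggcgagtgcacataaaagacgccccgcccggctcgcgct
Id3: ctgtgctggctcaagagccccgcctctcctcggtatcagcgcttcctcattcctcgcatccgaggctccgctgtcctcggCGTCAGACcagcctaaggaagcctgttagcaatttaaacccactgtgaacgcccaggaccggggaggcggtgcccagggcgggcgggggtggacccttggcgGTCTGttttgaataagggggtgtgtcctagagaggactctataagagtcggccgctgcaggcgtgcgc
Id4: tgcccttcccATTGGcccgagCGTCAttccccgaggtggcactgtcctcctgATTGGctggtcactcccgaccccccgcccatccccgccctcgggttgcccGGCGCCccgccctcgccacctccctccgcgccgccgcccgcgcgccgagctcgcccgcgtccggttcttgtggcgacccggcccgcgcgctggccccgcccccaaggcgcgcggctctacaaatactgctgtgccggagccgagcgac
Smad6: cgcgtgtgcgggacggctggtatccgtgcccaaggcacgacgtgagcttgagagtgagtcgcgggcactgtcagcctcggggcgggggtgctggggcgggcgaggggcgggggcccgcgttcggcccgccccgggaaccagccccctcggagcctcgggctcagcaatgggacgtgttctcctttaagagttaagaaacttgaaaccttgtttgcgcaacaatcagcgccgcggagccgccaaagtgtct
GGCGCC was found in Id2, at 231 bases before the start, and in Id4, at 148 bases. It was present in 9.59% of the 32851 promoters of the table over the same length. The Id3 sequence held CAGAC at 167 and 68 bases before the start, a motif found in 42.2% of all promoters, and the first of these matches shares bases with a TGACG match on the other strand. TGACG was also found in Id4 and stands in 17.8% of promoters. CCAAT, present in 33.8%, was found 3 times in Id2 and at 2 places in Id4. TATAAA (12.4% of promoters) and CACGTG (6.02%) were not found in these 4 windows, and the Smad6 window held none of the 6 letter strings. Matches of this kind are a description of the letters and show no binding. No promoter of Id1, Smad7 or Skil was used here.

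Levels are given as the log2 of the background-subtracted array signal minus the log2 of the array's own 75th percentile, so that 0 is the level of that percentile, and a difference of 1 between groups is a 2-fold difference. A level of one gene cannot be set against that of another, since each is read by its own probe. Tested were the 37684 probes that stood well above their local background on 2 or more of the 4 arrays in some group. Differences were tested with limma in a single fit of the 24 arrays, and a difference is called where the Benjamini-Hochberg adjusted p over all 37684 probes was under 0.05. Of the 10 probes, 9 were well above background on all 24 arrays and the other one, for Skil, on 23. The 75th percentile of the arrays lay between 202 and 533 intensity units. Between 57.5% and 62.1% of probes were well above background on the sham arrays and between 51.2% and 57.2% on the nsPEF arrays. Spots marked as outliers by the scanner software, which were left out, were more frequent on the later nsPEF arrays. They numbered 141 to 174 per array in S0, 96 to 137 in S4 and 134 to 192 in S24. In E0 they numbered 146 to 220, in E4 257 to 406 and in E24 348 to 508. One slide held the 8 arrays of each time, and within it the sham arrays formed the upper row and the nsPEF arrays the lower, so the slide cannot be told apart from time nor the row from treatment. Of 9 Leydig cell markers 8 were on the array. Star, Cyp17a1 and Nr5a1 were well above background on all 24 arrays, while Cyp11a1, Hsd3b6, Hsd17b3 and Lhcgr were so on none. Markers of other testis cells were in part present on all 24 arrays: 2 of 5 for Sertoli cells, 2 of 4 for peritubular myoid cells, 2 of 4 for macrophages, 1 of 4 for endothelial cells and 0 of 3 for germ cells. Their part in the results was not tested.

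In sham cells all 7 genes differed between 4 h and 0 h. Id1, Id2, Id3 and Smad6 fell by 1.16 to 1.47 on the log2 scale, while Id4, Smad7 and Skil rose by 0.58 to 0.93. By 24 h no member was called higher than at 0 h and 6 were called lower, which became 2 higher (Smad6 and Skil) and 4 lower when the arrays were scaled on spike-in RNA. These comparisons share the 0 h arrays. Across all tested probes, 29.4% were called higher and 29.7% lower in S4 than in S0, and 16.9% were called higher and 19.7% lower in S24 than in S0, so a call by itself was common at both times. With spike-in scaling 75.2% of probes were called higher and 1.44% lower at 24 h. The median log2 difference of the 7 genes was -1.16 at 4 h and -1.16 at 24 h, against a median over all tested probes of -0.0060 and -0.00096. As members went both ways at 4 h, the size without sign was also taken on the 75th percentile scale. Its median was 1.16 for the 7 genes at both times, against 0.47 at 4 h and 0.26 at 24 h over all tested probes. The members were chosen with earlier results of these data known and are read by their brightest probes, so these medians are a description only. Between 24 h and 4 h, with 27.8% of all probes called higher and 29.9% lower, 2 members were called higher and 4 lower (4 and 3 with spike-in scaling, which called 64.6% of probes higher and 7.51% lower). In a bulk sample, fewer cells that express a gene and less RNA per cell cannot be told apart.

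**Figure D1:**
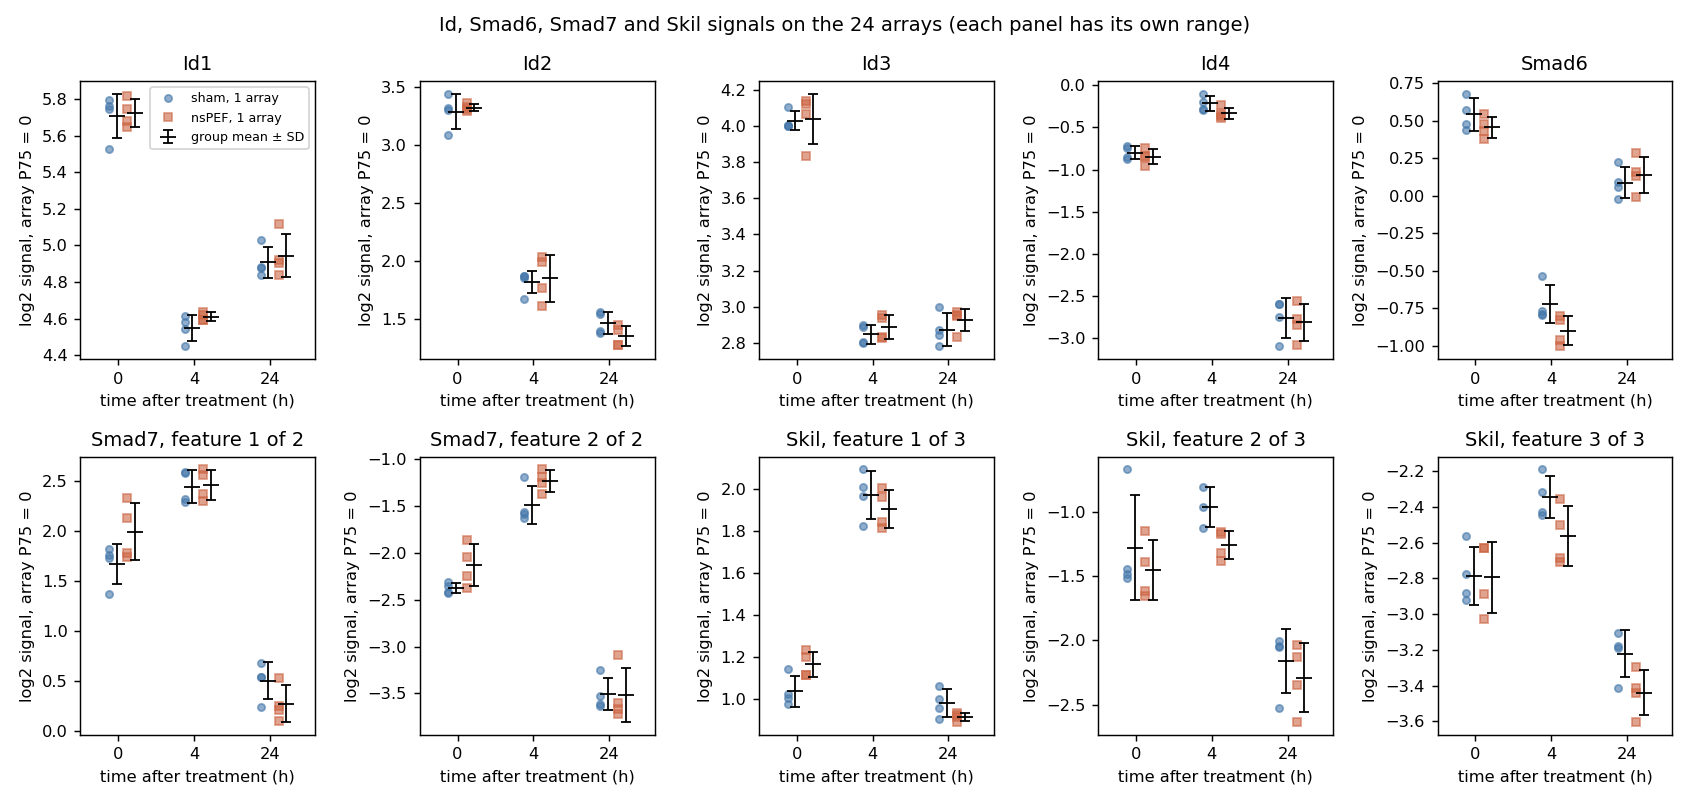
Each panel shows 1 array feature (probe) of the 7 genes: the log2 signal, with each array's 75th percentile at 0, against time in hours, with a circle for each sham array, a square for each nsPEF array and a black bar for the group mean ± SD (n = 4, or 3 for S4 in the second Skil panel). The 4 h and 24 h levels of Id1, Id2 and Id3 lie below those at 0 h on this scale, Smad7 and Id4 peak at 4 h, and sham and nsPEF arrays of the same time overlap in most panels.

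Id1, a widely expressed inhibitor of basic helix-loop-helix factors, had sham levels of 5.76, 5.79, 5.53 and 5.75 at 0 h. At 4 h they were 4.58, 4.61, 4.55 and 4.45, and at 24 h 4.88, 4.84, 5.03 and 4.88. No array of one time reached those of another: the order was 0 h, then 24 h, then 4 h. The log2 difference from 0 to 4 h was -1.16 ± 0.07 (SE, 2.24-fold, limma adjusted p = 4.85e-12), and the level at 24 h was still lower than at 0 h by a log2 difference of -0.80 ± 0.07 (adjusted p = 1.26e-08), which was -0.09 and not called when the arrays were scaled on spike-in RNA (adjusted p = 0.256). From 4 to 24 h Id1 rose by 0.36 (adjusted p = 9.5e-05). In nsPEF cells the levels were 5.74, 5.82, 5.68 and 5.65 at 0 h and 4.64, 4.62, 4.60 and 4.59 at 4 h. The 24 h levels were 4.90, 5.12, 4.84 and 4.92. The order was the same and no groups overlapped.

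Id2, which besides E proteins is known to bind the retinoblastoma protein, had sham levels of 3.32, 3.44, 3.08 and 3.30 at 0 h. They were 1.87, 1.85, 1.87 and 1.68 at 4 h and 1.55, 1.40, 1.56 and 1.38 at 24 h. Id2 thus went down in steps on this scale, with no overlap between times. The log2 difference was -1.47 ± 0.09 at 4 h against 0 h (2.77-fold, adjusted p = 8.6e-12) and -1.82 ± 0.09 at 24 h against 0 h (3.52-fold, adjusted p = 4.08e-12). The further step from 4 to 24 h, -0.35 (adjusted p = 0.0019), turned to 0.31 with spike-in scaling (adjusted p = 0.0179). The nsPEF levels were 3.29, 3.31, 3.33 and 3.36 at 0 h and 1.99, 2.03, 1.77 and 1.61 at 4 h. After 24 h the arrays read 1.45, 1.41, 1.28 and 1.28. The nsPEF groups too did not overlap between times.

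Id3 had sham levels of 4.00, 4.00, 4.11 and 4.01 at 0 h and 2.90, 2.81, 2.80 and 2.89 at 4 h. The final levels, at 24 h, were 2.87, 2.78, 2.84 and 3.00. It stood at 1 high and 1 low level: both later times lay below every 0 h array, and they overlapped each other. The log2 difference was -1.18 ± 0.06 at 4 h (2.27-fold, adjusted p = 1.55e-12) and -1.16 ± 0.06 at 24 h (2.23-fold, adjusted p = 2.74e-11). Between 24 and 4 h it was 0.03 (95% interval -0.11 to 0.16, adjusted p = 0.77), which became 0.19 with quantile normalization (adjusted p = 0.0182), 0.19 with the percentile taken over detected probes (adjusted p = 0.017) and 0.68 with spike-in scaling (adjusted p = 2.43e-06). In nsPEF cells the Id3 levels were 3.84, 4.12, 4.07 and 4.14 at 0 h and 2.95, 2.83, 2.93 and 2.83 at 4 h. The 24 h levels were 2.83, 2.97, 2.96 and 2.95. The 0 h arrays again stood apart from the rest.

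Id4, the fourth gene of the family, took another course. Its sham levels were -0.87, -0.72, -0.85 and -0.74 at 0 h and -0.10, -0.29, -0.28 and -0.19 at 4 h. After 24 h the arrays read -2.60, -2.75, -2.60 and -3.10. The order was 4 h, then 0 h, then 24 h, with no overlap. Id4 rose by 0.58 ± 0.10 from 0 to 4 h (adjusted p = 5.75e-05) and at 24 h was 3.90-fold lower than at 0 h (log2 difference -1.96 ± 0.10, adjusted p = 1.72e-11). Between 4 and 24 h the difference was -2.55, or 5.84-fold, the largest of the 7 genes in that comparison. The nsPEF levels were -0.85, -0.74, -0.84 and -0.96 at 0 h and -0.24, -0.34, -0.37 and -0.39 at 4 h. The arrays of 24 h read -2.84, -2.77, -3.09 and -2.57. Again no groups overlapped between times.

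The inhibitory Smads moved in opposite directions between 0 and 4 h. Smad6, which acts mainly on BMP signals, had sham levels of 0.48, 0.44, 0.68 and 0.57 at 0 h and -0.79, -0.79, -0.77 and -0.53 at 4 h. The 24 h levels were 0.09, -0.03, 0.06 and 0.23. It fell to 4 h by 1.26 ± 0.08 on the log2 scale (2.40-fold, adjusted p = 1.4e-11) and rose from 4 to 24 h by 0.81 (adjusted p = 1.73e-08). At 24 h it was lower than at 0 h by a log2 difference of -0.45 (adjusted p = 0.000108), which turned to 0.25 with spike-in scaling (adjusted p = 0.0141). The nsPEF levels were 0.38, 0.54, 0.43 and 0.47 at 0 h and -0.96, -1.003, -0.83 and -0.80 at 4 h. After 24 h the arrays read -0.01, 0.13, 0.28 and 0.16. The order of 0 h, 24 h and 4 h was that of Id1, in both treatments without overlap.

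Smad7, which blocks TGF-beta as well as BMP receptors, was read by 2 probes of the same transcript. The brighter one gave sham levels of 1.76, 1.82, 1.37 and 1.73 at 0 h and 2.58, 2.59, 2.32 and 2.29 at 4 h. The final levels, at 24 h, were 0.54, 0.54, 0.67 and 0.24. Smad7 rose by 0.78 ± 0.14 to 4 h (1.72-fold, adjusted p = 6.25e-05) and was 2.25-fold lower at 24 h than at 0 h (log2 difference -1.17 ± 0.14, adjusted p = 1.6e-06). The other probe gave log2 differences of 0.89 and -1.13 in the same comparisons (adjusted p = 7.96e-06 and 1.53e-06), so both put 4 h first, 0 h second and 24 h last. In nsPEF cells the brighter probe read 1.78, 1.74, 2.13 and 2.33 at 0 h and 2.62, 2.56, 2.37 and 2.30 at 4 h. The 24 h levels were 0.53, 0.25, 0.21 and 0.10. Here 0 h and 4 h overlapped: the difference was 0.47 ± 0.14 (adjusted p = 0.0064), and it was not called without replicate 1 of every group (0.35, adjusted p = 0.0841) or without replicate 2 (0.35, adjusted p = 0.098). The other probe had no such overlap, with a difference of 0.90 (adjusted p = 6.85e-06).

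Skil had 3 probes, each named for another RefSeq transcript. The brightest gave sham levels of 1.03, 1.14, 1.00 and 0.98 at 0 h and 2.01, 1.96, 2.09 and 1.82 at 4 h. After 24 h the arrays read 0.91, 1.00, 1.06 and 0.96. The 4 h arrays stood above the others and the 0 h and 24 h arrays overlapped. Skil rose by 0.93 ± 0.06 to 4 h (1.91-fold, adjusted p = 2.04e-11), and at 24 h the difference from 0 h was -0.05 (95% interval -0.18 to 0.07, adjusted p = 0.512), which became 0.65 with spike-in scaling (adjusted p = 1.78e-06). The dimmer probes did not return to the 0 h level in sham cells: they were lower at 24 h than at 0 h by log2 differences of -0.88 (adjusted p = 0.0007) and -0.44 (adjusted p = 0.0034), which became -0.17 and 0.27 with spike-in scaling, neither called (adjusted p = 0.442 and 0.0831). At 4 h they gave 0.31 (adjusted p = 0.172, with 3 sham arrays at 4 h since a marked spot was left out) and 0.44 (adjusted p = 0.0015). The probes thus disagreed on the 24 h difference, and which transcripts each detects was not tested. In nsPEF cells the brightest probe read 1.11, 1.11, 1.20 and 1.23 at 0 h and 1.96, 1.84, 2.00 and 1.81 at 4 h. The arrays of 24 h read 0.91, 0.93, 0.93 and 0.89. Its 24 h difference of -0.25 (adjusted p = 0.0019) was called, and turned to 0.23 with spike-in scaling (adjusted p = 0.0259). The dimmer probes gave -0.83 (adjusted p = 0.000956) and -0.64 (adjusted p = 8.04e-05) at 24 h in nsPEF cells, or -0.35 and -0.16 with spike-in scaling, neither called. At 4 h against 0 h the same probes gave 0.19 (adjusted p = 0.358) and 0.23 (adjusted p = 0.0694) in nsPEF cells, neither called, where the brightest probe gave 0.74.

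The change with time was also measured in the nsPEF cells, which are other samples. All 7 genes were called at 4 h against 0 h, 3 higher and 4 lower, with 33.5% of all tested probes called higher and 27.8% lower. At 24 h against 0 h all 7 were called lower, against 23.9% of probes higher and 18.3% lower, while with spike-in scaling Skil was called higher and 5 members lower, against 65.2% and 3.42% of probes. At 24 h against 4 h, with 27.5% of probes called higher and 29.0% lower, 2 members were called higher and 4 lower. With spike-in scaling, which called 49.2% of probes higher and 11.9% lower, 3 were higher and 3 lower. Id3 was again not called (adjusted p = 0.627), but was called higher with spike-in scaling (0.44, adjusted p = 0.00045). The nsPEF differences at 4 h were -1.11 for Id1, -1.47 for Id2, -1.15 for Id3, 0.51 for Id4, -1.35 for Smad6, 0.47 for Smad7 and 0.74 for Skil. At 24 h the differences were -0.78, -1.96, -1.11, -1.97, -0.32, -1.73 and -0.25 in the same order. Over the 3 pairs of times, the 21 differences had the same sign in both treatments on this scale and 20 had the same call, the exception being Skil at 24 h against 0 h. The differences of 24 h against 4 h follow from those against 0 h, and the sham and nsPEF arrays of a time share a slide. How many of all probes had the same sign or call in both treatments was not counted. The median size of the gap between the treatments was 0.07, and the largest was 0.56, for Smad7 at 24 h against 0 h.

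**Figure D2:**
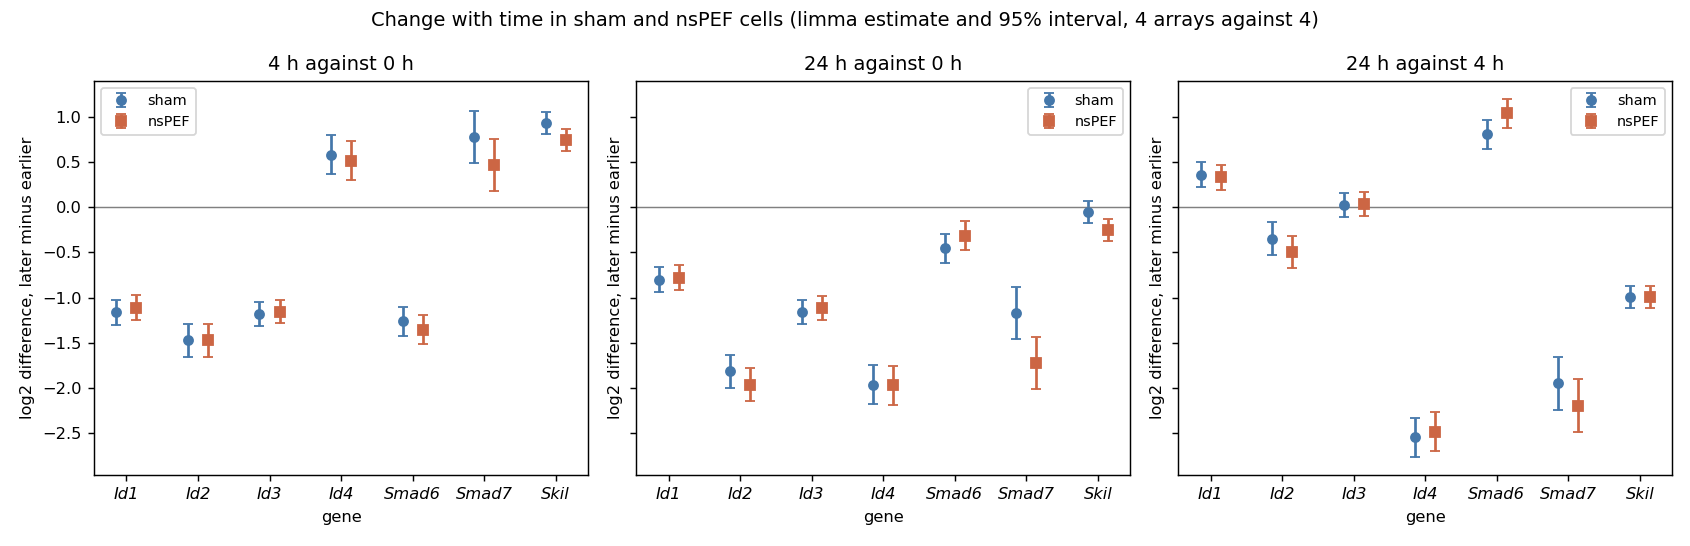
The 3 panels show the log2 difference between 2 times for each gene, with its 95% interval from limma, in sham cells (circles) and nsPEF cells (squares), 4 arrays against 4. At 4 h Id1, Id2, Id3 and Smad6 lie below 0 and Id4, Smad7 and Skil above it in both treatments. At 24 h against 0 h every point lies below 0 on the 75th percentile scale, though with spike-in scaling Smad6 and Skil lie above 0, as does Id2 in sham cells at 24 h against 4 h.

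No member was called between nsPEF and sham cells. At 0 h the share of probes called was 0.127% and 0 of the 7 genes were called by limma (2 at an unadjusted p under 0.05). At 4 h the share was 3.31% with 0 members called (1 unadjusted), and at 24 h 4.82% with 0 members called (0 unadjusted). Over all times 8.84% of probes were called and none of the 7 (0 unadjusted), with a lowest adjusted p of 0.324. A plain analysis of variance of time and treatment in place of limma likewise called 0 members in each of these comparisons. The test of whether the nsPEF effect differed between times called 0.377% of probes and 0 members (2 unadjusted, Smad7 and Skil, with adjusted p of 0.267 and 0.285). With spike-in scaling Id1 was called higher in nsPEF at 4 h (0.25, adjusted p = 0.0304) and over all times (0.13, adjusted p = 0.0457). The dimmer Smad7 probe was then also called higher at 4 h (0.44, adjusted p = 0.0446) and over all times (0.26, adjusted p = 0.0461), against 0.26 (adjusted p = 0.275) and 0.16 (adjusted p = 0.183) with the percentile. With spike-in scaling 15.8% of all probes were called higher at 4 h and 14.3% over all times, so 1 of 7 genes is about that share. The dimmer Skil probes had differences of -0.29 (adjusted p = 0.394) and -0.22 (adjusted p = 0.253) at 4 h and were not called at any time with the percentile. With quantile normalization the second of them was called lower in nsPEF at 4 h (-0.43, adjusted p = 0.0443), at 24 h (-0.46, adjusted p = 0.0292) and over all times (-0.33, adjusted p = 0.00688), while the brightest Skil probe was not.

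The 95% intervals below are not adjusted for the number of probes and hold for the 75th percentile scale. For Id1 the interval of nsPEF minus sham was -0.12 to 0.15 at 0 h, -0.07 to 0.20 at 4 h and -0.10 to 0.18 at 24 h. For Id2 it was -0.15 to 0.22, -0.15 to 0.21 and -0.30 to 0.07, and for Id3 -0.12 to 0.14, -0.09 to 0.17 and -0.08 to 0.19. These 3 genes had the narrower intervals of the Id family. With spike-in scaling their 4 h differences were 0.25, 0.22 and 0.23, which lie above those intervals. For Id4 the intervals were -0.26 to 0.17, -0.33 to 0.10 and -0.27 to 0.16. Smad7 had the widest, -0.27 to 0.31 at 4 h and -0.52 to 0.06 at 24 h, and at 0 h its interval lay above 0 (0.04 to 0.62). That 0 h difference of 0.33 did not pass the adjustment (adjusted p = 0.417, exact two-sided permutation p = 0.171), came with 2 of the 4 nsPEF arrays above every sham array, and was 0.25 with the other Smad7 probe (adjusted p = 0.569).

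Skil and Smad6 gave the other values whose interval lay on 1 side of 0. For Skil at 0 h the difference was 0.13 (0.01 to 0.25, adjusted p = 0.463) with overlapping groups. For Smad6 at 4 h it was -0.18 (-0.34 to -0.02, adjusted p = 0.194). All 4 nsPEF arrays of Smad6 at 4 h lay below all 4 sham arrays, and the exact two-sided permutation p was 0.0286, the smallest that 4 against 4 allows. The nearest arrays were -0.80 in nsPEF and -0.77 in sham, and with spike-in scaling the difference was 0.01 (adjusted p = 0.957). Over the alternative settings tried, the adjusted p of this difference ranged from 0.0749 to 0.957.

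**Figure D3:**
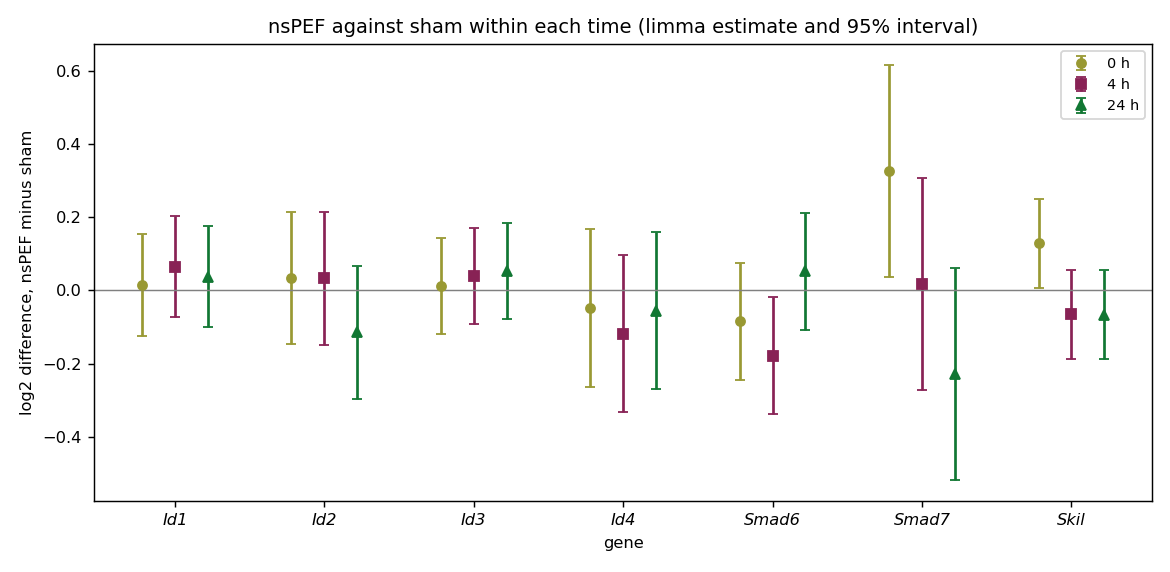
The log2 difference of nsPEF minus sham is plotted for each gene at 0 h (circles), 4 h (squares) and 24 h (triangles) with its 95% interval from limma, 4 arrays against 4. No gene was called after adjustment. The intervals of Smad7 and Skil at 0 h and of Smad6 at 4 h do not reach 0 on the 75th percentile scale, and with spike-in scaling the Smad6 difference at 4 h is 0.01.

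The genes whose levels followed each member most closely over the 24 arrays were looked for among 4543 probes with 1 gene symbol that were well above background on all arrays and whose group means spanned at least 1. Pearson's r is a description here, since the arrays share time and slide. For Id1 they were Jund (r = 0.987) and Egr1 (0.984), for Id2 Nr4a2 (0.991) and Egr2 (0.990), and for Id3 Ppp1r15a (0.992) and Jun (0.990). Jund and Jun encode AP-1 proteins, and Egr1, Egr2 and Nr4a2 are immediate-early transcription factors. Egr1 had group means of 6.15 in S0, 2.31 in S4 and 3.80 in S24, the same order of times as Id1, and Jun had 6.58, 2.80 and 2.71, which, like Id3, was about as low at 24 h as at 4 h. For Id4 they were Ptgs2 (0.987), the inducible cyclooxygenase, and Mex3b (0.979). For Smad7 they were Thbs1 (0.981), which encodes thrombospondin, an activator of latent TGF-beta, and Idi1 (0.980). For Smad6 they were Ccdc61 (0.992) and Ift46 (0.990), and for Skil Atxn1 (0.985) and 2410004B18Rik (0.985).

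Among the members themselves the levels over the 24 arrays formed the same description. Id1 and Id3 had an r of 0.94, Id2 and Id3 0.95, and Id1 and Id2 0.86. Smad6 had 0.85 with Id1, 0.73 with Id3 and 0.53 with Id2. Id4 and Smad7 had 0.96, Smad7 and Skil 0.81, and Id4 and Skil 0.75. Between Id1, Id2, Id3 and Smad6 on one side and Id4, Smad7 and Skil on the other, r ran from -0.89 for Smad6 and Skil to 0.50 for Id2 and Id4. The points share times and slides here too.

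The other genes of the pathway were taken from a list of 90, all of them on the array, of which 72 were tested. At 4 h against 0 h in sham cells 32 were called higher and 20 lower, and at 24 h 20 were called higher and 20 lower, or 57 and 4 with spike-in scaling. Over all probes 29.4% were called higher and 29.7% lower at 4 h, and 16.9% and 19.7% at 24 h (75.2% and 1.44% with spike-in scaling). The median log2 difference of the tested genes was 0.16 at 4 h and 0.07 at 24 h, or 0.21 and 0.78 with spike-in scaling. At 4 h the ligands included the largest falls. Tgfb3, a TGF-beta ligand, fell by 2.51 ± 0.08 on the log2 scale (adjusted p = 7.14e-16) and Bmp4, a BMP ligand that binds the receptors upstream of the Id genes, by 2.46 ± 0.06 (adjusted p = 1.81e-17). Of the 9 tested BMP and GDF ligands 0 were called higher and 4 lower, or 2 and 4 with spike-in scaling. Gdf5 fell by 1.11 in sham cells (adjusted p = 0.000701), but not in nsPEF cells (-0.0033, adjusted p = 0.992). Gdf15 was at least 4.68-fold lower in sham cells (adjusted p = 6.9e-05), a bound since it was not well above background on any S4 array. Of the 7 tested TGF-beta and activin ligands 2 were called higher and 3 lower. Inhba, which encodes the activin A subunit, rose by 3.72 ± 0.05 (13.2-fold, adjusted p = 8.27e-21), and Inha, the inhibin alpha subunit, fell by 1.19 (adjusted p = 2.09e-07).

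Downstream of the ligands, 4 of 6 signal-carrying Smads were called higher at 4 h and 0 lower, and of 14 receptors and co-receptors 6 were called higher and 3 lower. None of these had a called difference of at least 1. Of the 14 secreted antagonists and latency proteins 8 were called higher and 3 lower, with 29.4% of all probes called higher and 29.7% lower. Grem1, which traps BMPs outside the cell, rose by 1.70 ± 0.05 (adjusted p = 8.78e-17). Ltbp1, which holds latent TGF-beta in the matrix, rose by 1.19 (adjusted p = 1.16e-12). At 24 h Nog, which encodes the BMP antagonist noggin, was lower by a log2 difference of -1.32 (adjusted p = 5.3e-07), which became -0.61 with spike-in scaling (adjusted p = 0.0012). Of these 14 genes 4 were called higher and 7 lower at 24 h, or 11 and 2 with spike-in scaling. The shares over all probes were 16.9% and 19.7%, or 75.2% and 1.44% with spike-in scaling.

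The remaining inhibitors of the pathway, those inside the cell or in its membranes, are the closest in role to Smad6, Smad7 and Skil. Of 11 tested, 8 were called higher and 2 lower at 4 h, when 29.4% of all probes were called higher and 29.7% lower. Pmepa1, a membrane protein that holds back the carrier Smads, rose by 4.19 ± 0.08 (18.2-fold, adjusted p = 9.62e-19), with group means of 0.41 in S0, 4.60 in S4 and 0.59 in S24. The ubiquitin ligases Smurf1 and Nedd4l rose by 1.60 (adjusted p = 1.98e-15) and 1.46 (adjusted p = 2.95e-15). At 24 h 3 of the 11 were called higher and 2 lower, close to the shares of 16.9% and 19.7% over all probes. With spike-in scaling, which raised most probes at 24 h, these became 10 higher and 0 lower. The median log2 difference of the 11 was 0.69 at 4 h and 0.0012 at 24 h, or 0.74 and 0.71 with spike-in scaling.

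Of the 8 transcribed TGF-beta targets 3 were called higher and 3 lower at 4 h, near the shares over all probes of 29.4% and 29.7%. Ccn2, connective tissue growth factor, rose by 1.96 ± 0.06 (adjusted p = 2.23e-16), while Junb fell by 1.85 ± 0.07 (adjusted p = 1.6e-14). Junb was also lower at 24 h (-2.01, adjusted p = 5.13e-14, or -1.30 with spike-in scaling). Of the 3 E proteins that Id proteins bind, 1 was called higher and 2 lower at 4 h. At 24 h 2 were called higher, against 16.9% of all probes, or 3 with spike-in scaling, against 75.2%. The ligands Gdf9 (-1.09, adjusted p = 3.79e-05, and -0.38, not called, with spike-in scaling) and Bmp10 (1.49, adjusted p = 0.0034) and, with 2 of 4 arrays well above background at 24 h, Gdf15 (-2.19, adjusted p = 0.000802) were the remaining ligands with a called difference of at least 1 at 24 h. Bmp10 was dim, with a mean of -4.32 in S0, where 3 of 4 arrays were well above background. In nsPEF cells its difference was 0.62 and not called (adjusted p = 0.191).

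**Figure D4:**
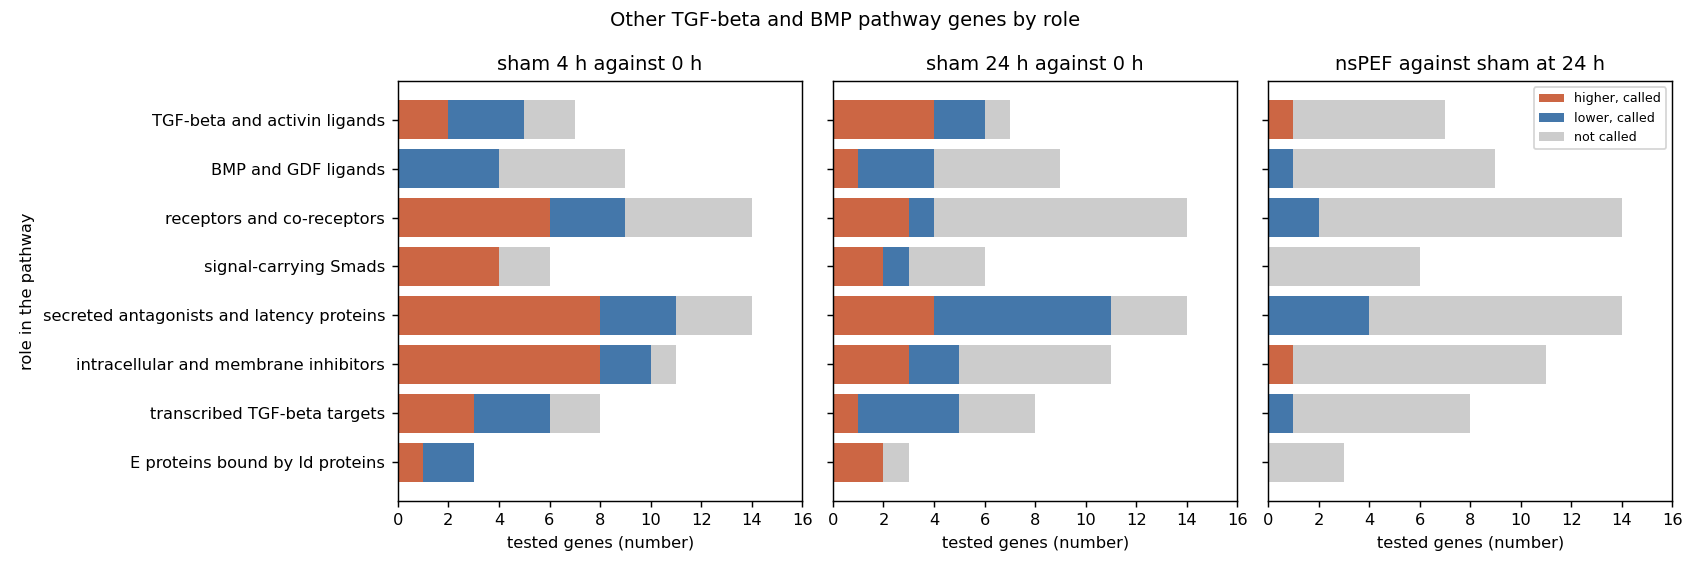
Bars give the number of tested pathway genes, other than the 7 members, in each role that were called higher, called lower or not called, for sham cells at 4 h and 24 h against 0 h and for nsPEF against sham at 24 h. At 4 h 8 of the 11 intracellular and membrane inhibitors were called higher and 0 of the 9 BMP and GDF ligands were (2 with spike-in scaling), and few genes of any role were called between nsPEF and sham.

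Between nsPEF and sham cells 0 of the 72 pathway genes were called at 0 h, 3 at 4 h and 10 at 24 h, counts that changed with the processing. The shares over all probes were 0.127%, 3.31% and 4.82%, so the count at 4 h (4.17% of the 72) is near that share. The count at 24 h (13.9% of the 72) lies above its share, but 0 were called at 24 h in fits of only the groups compared. At 4 h all 3 were higher in nsPEF, among them Gdf5 (1.06, adjusted p = 0.0262) and the corepressor Tgif1 (0.17, adjusted p = 0.0489). Gdf5 had group means of -2.49 in S0, -2.53 in E0, -3.60 in S4 and -2.54 in E4. Its fall in sham cells and its nsPEF difference at 4 h thus rest on the same S4 arrays. With quantile normalization the nsPEF difference of Gdf5 was 0.83 and not called (adjusted p = 0.0609). At 24 h 2 were higher, Nodal (0.49, adjusted p = 0.0342) and Smurf1 (0.21, adjusted p = 0.0337), and 8 were lower. The lower ones included the ligand Bmp4 (-0.22, adjusted p = 0.0421), the receptors Tgfbr1 (-0.32, adjusted p = 0.0479) and Tgfbr3 (-0.29, adjusted p = 0.0266), the antagonists Fst (-0.30, adjusted p = 0.0232) and Fstl1 (-0.35, adjusted p = 0.0205), the matrix protein Dcn (-0.29, adjusted p = 0.0302) and the target Ccn2 (-0.22, adjusted p = 0.0371). With spike-in scaling 16 genes were called higher and 0 lower at 4 h, when 15.8% of all probes were called higher and 0.191% lower. At 24 h this scaling called 0 genes higher and 5 lower, against 1.1% of all probes higher and 1.11% lower. None of the 3 genes of 4 h and 10 of 24 h is a member of the Id and Smad feedback set.

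The 24 h comparisons depended on how the arrays were scaled. When arrays were scaled on the 6 spike-in RNA probes in place of the 75th percentile, the median log2 difference of all tested probes at 24 h against 0 h was 0.71 in sham cells and 0.55 in nsPEF cells, in place of -0.00096 and 0.06. At 4 h against 0 h it was 0.04 and 0.17, and at 24 h against 4 h 0.67 and 0.38. For nsPEF minus sham it was 0.13, 0.19 and -0.04 at the 3 times, and 15.8% of probes were called higher and 0.191% lower at 4 h, against 1.71% and 1.6% with the percentile. The 4 h differences of the members kept their direction and call: in sham cells they were -1.11 for Id1, -1.42 for Id2, -1.13 for Id3, 0.63 for Id4, -1.21 for Smad6, 0.83 for Smad7 and 0.98 for Skil. At 24 h Id2 (-1.11), Id4 (-1.26), Id3 (-0.45) and Smad7 (-0.46) were still called lower in sham cells, while Smad6 and Skil turned to a higher level and Id1 was not called. Each of the 7 lay below that median in sham cells, from 0.65 for Skil to -1.26 for Id4.

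**Figure D5:**
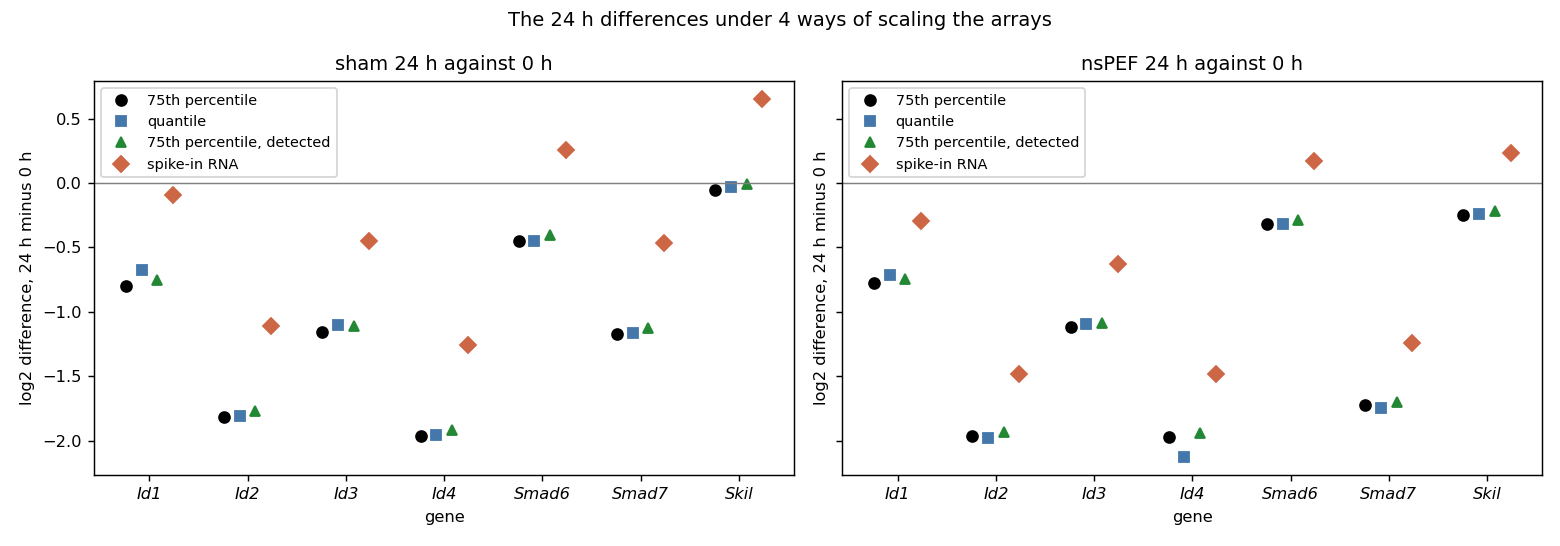
The log2 difference of 24 h minus 0 h is shown for each gene in sham cells (left) and nsPEF cells (right) under 4 scalings of the arrays: the 75th percentile (circles), quantile normalization (squares), the 75th percentile over probes detected on all arrays (triangles) and spike-in RNA (diamonds). The first 3 lie close together, and the spike-in values lie higher for every gene, with Smad6 and Skil above 0.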

How the data were processed

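The authors labelled total RNA with Cy3, added spike-in RNA, hybridized it to an Agilent mouse expression array and read the scans with Feature Extraction 12.0. The deposited scanner files hold 1 intensity per spot, background-subtracted and detrended by that software. The deposited series table holds log2 values that the authors had shifted to the 75th percentile and centred on the median of all samples, and was used as an alternative. Groups came from the sample labels. Here the log2 of the processed signal minus the array's 75th percentile was computed without control spots and marked spots, spots of a probe were averaged, and probes were named through their RefSeq transcript with a gene table of GRCm38.p6. No spot of the arrays was saturated. A probe had to be well above background on at least 2 of 4 arrays of any group. For genes with several probes, counts use the one with the highest mean. limma 3.58.1 (R 4.3.3) fitted 1 mean per group on the 24 arrays with moderated variances, with Benjamini-Hochberg adjustment over the 37684 tested probes at a threshold of 0.05. The fit was also run on simulated data, with changes in S4 only and no shift of whole arrays. That run does not bear on the scaling or on the nsPEF comparisons. Exact permutation tests were two-sided. Where no array of a group read a named gene well above background, the fold is a lower bound, taken against the higher of its own signal and the lowest signal well above background on each array. Pathway genes were named by size: at most 3 per role, with a called log2 difference of at least 1 between times, or with any called difference between nsPEF and sham. Some genes that this rule takes are not reported here. Likeness was ranked by Pearson's r. Members and lists were chosen with earlier results of these data known. The number of arrays limits the precision. Alternatives covered scaling, background, filters, weights, the spot's place, the probe of a gene, the test and leaving out arrays. Figures were drawn with matplotlib 3.10.9.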

Additional observations from a re-analysis of the deposited data

Results flagged for a closer look

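In groups of 4 arrays, 7 of the 59 groups of a probe had 1 array set apart from the other 3, its gap to the nearest of them exceeding Dixon's 95% critical share of the range. Chance gives this in about 1 in 20 groups. In S4 these were Id2 at 1.68, below the rest, Smad6 at -0.53, above the rest, and the dimmer Smad7 probe at -1.19, above the rest. In S0 they were Id3 at 4.11 and the second Skil probe at -0.67, both above the rest. In E24 Id3 was low at 2.83, and in S24 the second Skil probe was low at -2.53.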

How the results depend on the processing

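Of 3297 values of the members under alternatives, 3278 kept their side of the threshold and, where called, their direction. Among them 77 values that were called in neither setting changed sign. The alternatives were 15 settings, 24 fits without 1 array and 4 without 1 replicate number, so most reuse nearly the same arrays. Spike-in scaling reversed Smad6 (0.25) and Skil (0.65) in sham cells at 24 h against 0 h, Smad6 (0.17) and Skil (0.23) in nsPEF cells, and Id2 in sham cells at 24 h against 4 h (0.31). It also ended the calls of Id1 in sham cells at 24 h against 0 h (-0.09) and Id2 in nsPEF cells at 24 h against 4 h (-0.09). The cause was not tested. Id3 at 24 h against 4 h was called higher with quantile normalization (0.19 in sham, 0.17 in nsPEF), spike-in scaling (0.68 and 0.44) and the percentile over detected probes (0.19 and 0.16). The mean of the Skil probes was called lower in sham cells at 24 h against 0 h (-0.46).

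Between nsPEF and sham, 1 member was called at 4 h and 1 over all times with spike-in scaling (15.8% and 14.3% of all probes were called higher), and 1 (Smad7, adjusted p = 0.0468) in the interaction with array weights. The third Skil probe was called lower with quantile normalization at 4 h, at 24 h and over all times (adjusted p = 0.0443, 0.0292 and 0.00688). The pathway counts were 3 at 4 h, 10 at 24 h and 5 over all times. They became 16, 5 and 8 with spike-in scaling, 8, 2 and 14 with normexp background correction and 7, 17 and 16 with a floor at the background. At 4 h and over all times they were 6 and 11 with no filter and 13 and 16 with centring in bands of rows. At 24 h and over all times they were 18 and 14 with marked spots kept, 19 and 14 with the deposited log2 values and 24 and 12 with array weights. Averaging the probes of each gene gave 8 over all times. In fits of only the groups compared 0 were called at 4 h and 0 at 24 h. Leaving out arrays gave 0 to 5 at 4 h, 0 to 17 at 24 h and 1 to 8 over all times. In sham cells at 24 h against 0 h, 40 pathway genes were called, with 16.9% of all probes higher and 19.7% lower. With spike-in scaling 61 were called, with 75.2% and 1.44%. For nsPEF against sham, the main shares of all probes were 3.31% at 4 h, 4.82% at 24 h and 8.84% over all times. Spike-in scaling called 1.1% higher and 1.11% lower at 24 h. For the other pathway counts here the share was not counted, so a change of the list alone cannot be told.

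By the study, the tests of 1 biological replicate used 1 cell suspension, but the labels do not say that a number marks a suspension. Of 12 same-numbered pairs of sham and nsPEF samples, 7 had a correlation of their deviations over 0.1, with a range from -0.16 to 0.29, and 5 correlated best with their own number. With a replicate block 7 members were called in sham cells at 4 h against 0 h, and the pathway counts for nsPEF against sham became 3, 9 and 7 at 4 h, 24 h and over all times. The block changed no call of a member. A slide block was not run, since each slide holds 1 time. Low signal limits the dim values, among them those of Id4 (down to 33.5 intensity units in S24) and of the dimmer Smad7 and Skil probes.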
